A study of Mus musculus with 4 samples.

Results

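This account covers 6 noncoding RNAs that are kept mainly in the nucleus: Rn7sk (7SK), Malat1, Neat1, Pvt1, Kcnq1ot1 and Meg3. They were taken by gene symbol, and they are 6 of the 47069 genes in the count table, of which 14421 had at least 1 count. All libraries derive from Lewis lung carcinoma, an established mouse lung carcinoma cell line, grown under the skin of C57BL/6 mice, with tumours taken 3 weeks after inoculation. The 2 exosome libraries hold RNA of vesicles shed by tumour pieces into serum-free medium over 12 h and collected with a precipitation reagent. The 2 tumour libraries hold RNA of the primary tumour, the tissue the vesicles came from. No other treatment or allele is given. The labels do not say whether replicates come from separate animals, so a p-value here covers no more than the scatter between these libraries. The labelled comparison is of gene signatures between exosomes and the tumour.

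As background, 7SK is an abundant RNA made by RNA polymerase III that, with the proteins Larp7, Mepce and Hexim1, holds the elongation factor P-TEFb in an inactive particle. Malat1 gathers in nuclear speckles with splicing factors, and Neat1 is the scaffold of paraspeckles. Pvt1 lies beside the Myc oncogene, Kcnq1ot1 silences imprinted neighbours from the paternal allele, and Meg3 is an imprinted RNA made from the maternal allele.

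The sequences below show the ends of the RNAs that bind proteins or are cut, as annotated by GENCODE M21 on GRCm38. The gene models behind the deposited counts are not given, and the deposited FPKM come to a length of 331 bases for Rn7sk, as in GENCODE, but 9336 for Malat1 and 24804 for Neat1, against 6983 and 20771 in GENCODE. Rn7sk is a single unspliced gene of 331 bases, and its first 110 bases carry the 5′ hairpin that Hexim proteins bind through GAUC elements. GATC, which reads the same on both strands, is in capitals. It occurs 3 times in this stretch and nowhere else in the gene, and 0.427% of 138029 annotated transcripts hold it at least 3 times in their first 110 bases.
Rn7sk 5′ part, chr9:78175524-78175633, minus strand: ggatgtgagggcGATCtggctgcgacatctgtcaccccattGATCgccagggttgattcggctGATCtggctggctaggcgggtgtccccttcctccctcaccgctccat
Rn7sk 3′ end, chr9:78175303-78175342, minus strand, with the final T run that Larp7 holds as U in the RNA in capitals: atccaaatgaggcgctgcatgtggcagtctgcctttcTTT

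Malat1 and Neat1 are not ended by a usual poly(A) tail. RNase P cuts the nascent RNA in front of a tRNA-like structure, and the remaining end folds a T-rich stretch (U in the RNA) onto an A-rich one. The first 2 stretches in capitals below, of 16 and 10 bases, were searched on the RNA strand and occur in both RNAs. The 16 bases were found in 2 of 141765 annotated transcripts, those of Malat1 and Neat1. The 10 bases were found anywhere in 1.12% of transcripts, and 11 transcripts end in them. The third, GGTTCAA, is part of the T loop of the tRNA-like structure of Malat1. It is found in 0.56% of the first 140 bases of annotated transcripts, a loose comparison, as the Malat1 stretch was cut to hold it. Anywhere in the transcript it is found in 7.23%, and 1 time in the longest of Neat1.
Malat1 3′ part, chr19:5795912-5796051, minus strand: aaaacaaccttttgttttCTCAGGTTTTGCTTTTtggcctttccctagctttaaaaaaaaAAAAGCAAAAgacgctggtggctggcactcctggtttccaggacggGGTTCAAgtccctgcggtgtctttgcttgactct
Neat1 3′ end, chr19:5824708-5824777, minus strand: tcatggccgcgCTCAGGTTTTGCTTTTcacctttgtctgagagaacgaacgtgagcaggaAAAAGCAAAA
In GENCODE, Malat1 goes on for 292 bases after the shared A-rich stretch and so takes in the tRNA-like small RNA, while Neat1 stops at that stretch. Where along Malat1 the reads lie is not recorded in a gene count.

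The exosome libraries held 305751 and 217201 counts and the tumour libraries 14543691 and 10849811, a 48.6-fold difference in all. Scaled to library size as CPM, 1 count is 3.27 and 4.60 in exosome replicates 1 and 2, and 0.0688 and 0.0922 CPM in tumour replicates 1 and 2. The reads were amplified and carry no molecular identifiers, so the exact 95% intervals and floors (3 counts) given here cover counting error only. Small nucleolar RNA took 0.893% to 0.925% of exosome counts and 81.2% to 82.5% of tumour counts. TMM scaling, which sets the typical tested gene near 0, put the median of the 1442 tested genes at 0.018 on the log2 scale. Dividing by library totals put it at 2.75. These medians depend on the filter on low counts, which asked for 1.79 CPM in at least 2 libraries. In an exosome library 1 count reaches that level, and in a tumour library it does not. With no filter the TMM median over 14421 genes was −1.86. Shares of tested genes that lay or were called higher in exosomes carry the same selection. The carcinoma label could not be read from epithelial markers, of which Epcam and Cdh1 had no count in any library and Krt18 had 1 and 1 in exosomes and 11 and 4 in tumour. Of 4 endothelial, 6 fibroblast and 6 macrophage markers, 3, 6 and 3 had an exosome count, and 4, 5 and 6 had a tumour count. Summed over 6 markers of erythroid cells and platelets, CPM were 203 and 401 in exosomes and 89.5 and 62.6 in tumour. Over 5 neutrophil markers they were 49.1 and 50.6 in exosomes and 3.71 and 1.01 in tumour. Over 6 fibroblast or pericyte markers they were 81.8 and 106 in exosomes and 9.42 and 7.37 in tumour. All these CPM are of library totals, on which the median tested gene lay 2.75 higher in exosomes on the log2 scale. The part of these cells in the results was not tested. In bulk RNA, fewer cells or vesicles of a kind and less RNA in each cannot be told apart.

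Per length, 7SK had the highest level of the members in every library, and among the 5 tested members it had the lowest exosome level relative to the tumour. Rn7sk (ENSMUSG00000065037, chromosome 9) had 15 and 11 counts in exosomes and 5977 and 4393 in tumour. In CPM these were 49.1 and 50.6 in exosomes, with exact 95% intervals of 27.5 to 80.9 and 25.3 to 90.6, and 411 and 405 in tumour. The replicates lay close together and the groups did not overlap. For 15.8% of tested genes both exosome libraries lay below both tumour libraries in CPM. Its mean share was 0.00499% ± 0.000112 of exosome counts and 0.0408% ± 0.00043 of tumour counts (SD, n = 2 each), 8.18-fold lower in exosomes. At the tumour share, exosome replicates 1 and 2 would have held 125 and 88.7 counts, above the exact Poisson intervals of the counts found, 8.40 to 24.7 and 5.49 to 19.7. Rn7sk ranked 227 and 238 among all genes in the exosome libraries and 74 and 73 in the tumour libraries.

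**Figure D1:**
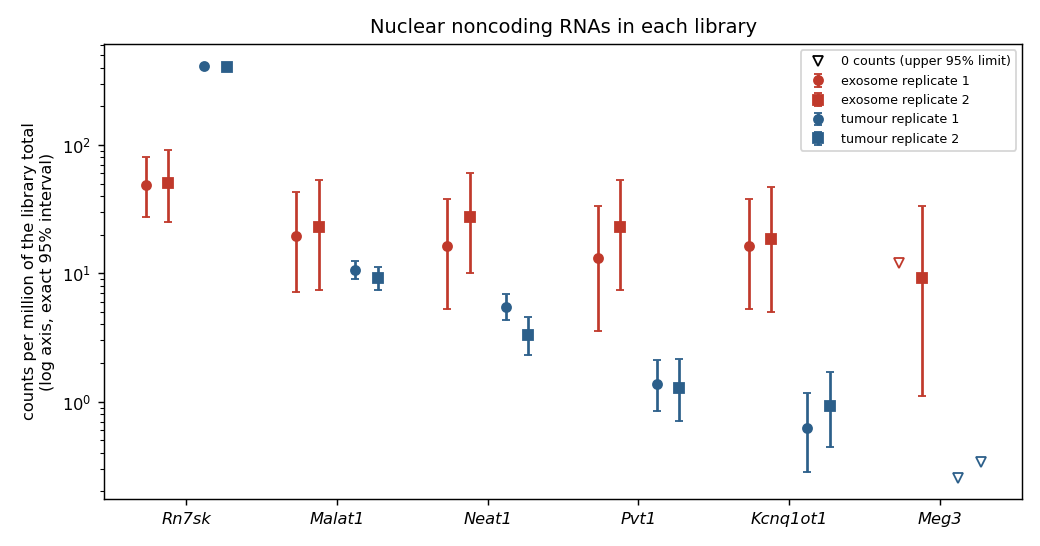
CPM of the library total (log axis) for the 6 nuclear noncoding RNAs in each exosome (red, left) and tumour (blue, right) library, with exact 95% intervals and open triangles for the upper limit at 0 counts. Rn7sk lies at 49.1 and 50.6 CPM in the exosome libraries and at 411 and 405 in the tumour libraries, while the exosome points of Malat1, Neat1, Pvt1 and Kcnq1ot1 lie between 13.1 and 27.6 CPM on 4 to 6 counts each.

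The log2 difference of Rn7sk, exosome minus tumour, was −5.82 with TMM (SE 0.20, edgeR adjusted p = 1.80e-07), or −5.83 from the median gene. With library totals it was −3.04 (SE 0.32, edgeR adjusted p = 1.41e-11), or −5.79 from the median gene. The distance from the median was −4.86 with a minimum of 10 counts in 2 libraries and −5.14 with no filter, so its size depended on the filter. Rn7sk was called lower in all 18 alternatives tried, from −8.25 to −1.87. Of all tested genes, 22.1% were called lower with TMM and 11.5% with library totals. In the TMM fit 158 of 1442 tested genes lay below Rn7sk, and of 954 protein-coding genes 29 did. A low exosome level is thus shared with many genes and is not particular to 7SK.

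7SK has many copies in the mouse genome, and the sources used here do not say what was done with reads that match more than 1 gene. A search of the annotated transcripts found 11 other genes at least 90% identical to Rn7sk over at least 200 bases, 8 of them with a count. Together they had 8 and 8 counts in exosomes and 2401 and 1590 in tumour, which is 53.3% and 72.7% of the Rn7sk count in exosomes and 40.2% and 36.2% in tumour. The copies with most counts were Gm26315 on chromosome 2 (3 and 5 in exosomes, 780 and 476 in tumour) and Gm24447 on chromosome 15 (3 and 2 in exosomes, 732 and 513 in tumour). The 5 copies that were tested fell with TMM and with library totals. Among them, Gm24146 had 1 and 0 counts in exosomes and 226 and 144 in tumour. Gm23973 had 0 and 0 in exosomes and 113 and 39 in tumour. Neither would have passed the filter on low counts by its exosome libraries, so their direction is no support. With library totals Gm26315 had −1.66 (edgeR adjusted p = 0.00418) and Gm24447 −2.35 (edgeR adjusted p = 0.000359). With all copies summed into Rn7sk the log2 difference was −5.59 (SE 0.18, edgeR adjusted p = 1.68e-07). Reads of near-identical copies can be counted on any of them, so the copies are no independent evidence.

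The transcripts of the 7SK particle and of P-TEFb were near the limit of detection. Of 15 listed genes 14 had a count, summing to 7 and 7 in exosomes and 102 and 67 in tumour. The first 4 genes named next were picked for their place in the particle, after their values were seen. Larp7, which holds the 3′ end of 7SK, had 0 and 0 counts in exosomes and 1 and 1 in tumour. Mepce, which caps its 5′ end, had 0 and 0 in exosomes and 5 and 1 in tumour. Hexim1, the inhibitor of the P-TEFb kinase, had 0 and 0 in exosomes and 11 and 8 in tumour, and at the tumour share 0.391 counts would fall in the 2 exosome libraries together. Cdk9, that kinase, had 3 and 1 in exosomes and 3 and 4 in tumour. Aff4, a scaffold of the super elongation complex, had 1 and 0 in exosomes and 22 and 17 in tumour, and its partner Aff1 0 and 0 in exosomes and 15 and 7 in tumour. The splicing factor gene Srsf2 had 0 and 1 in exosomes and 14 and 11 in tumour. The genes named here had too few counts for a test, and Hexim2 had no count.

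Malat1 and Neat1 lie 22036 bases apart on the minus strand of chromosome 19, and their direction depended on the scaling. Malat1 (ENSMUSG00000092341, chromosome 19, 5795690 to 5802672) had 6 and 5 counts in exosomes and 155 and 99 in tumour. In CPM these were 19.6 and 23.0 in exosomes (intervals 7.20 to 42.7 and 7.47 to 53.7) and 10.7 and 9.12 in tumour (9.05 to 12.5 and 7.42 to 11.1). The points did not overlap and were higher in exosomes, but the exosome intervals covered the tumour values. The mean share was 0.00213% ± 0.00024 of exosome counts and 0.000989% ± 0.000108 of tumour counts (SD, n = 2 each). At the tumour share 3.06 and 2.17 counts would have been found in exosome replicates 1 and 2, within the intervals of the 6 and 5 counts seen.

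With TMM the log2 difference of Malat1 was −1.69 (SE 0.32, edgeR adjusted p = 0.00353). With library totals it turned to 1.08 (SE 0.54, edgeR adjusted p = 0.0645), and with scaling by summed FPKM to 2.25 (edgeR adjusted p = 0.00107). With no filter on low counts it was −2.86 (edgeR adjusted p = 1.44e-10), and with TMM factors from genes with at least 10 counts in every library, a choice made after seeing the data, −4.11 (edgeR adjusted p = 2.05e-06). Relative to the median tested gene it was −1.70 with TMM and −1.67 with library totals. Of 1442 tested genes 334 lay below it, and of 954 protein-coding genes 121. Both exosome libraries lay above both tumour libraries in CPM for 77.2% of tested genes and below for 15.8%.

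Neat1 (ENSMUSG00000092274, chromosome 19, 5824708 to 5845478) had 5 and 6 counts in exosomes and 80 and 36 in tumour. Its CPM were 16.4 and 27.6 in exosomes and 5.50 and 3.32 in tumour. The exosome libraries were both higher, and tumour replicate 1 was above tumour replicate 2 with intervals of 4.36 to 6.85 and 2.32 to 4.59 that meet. With TMM the log2 difference was −0.54 (SE 0.47, edgeR adjusted p = 0.459), which did not pass the threshold, and with library totals it turned to 2.23 (SE 0.61, edgeR adjusted p = 0.00129). At the tumour share 1.40 and 0.992 counts would have been found in exosome replicates 1 and 2, below the Poisson intervals of the counts seen, 1.62 to 11.7 and 2.20 to 13.1. Per length, as counts per kilobase of annotated exon scaled to the library total, Malat1 stood at 2.81 and 3.30 in exosomes and 1.53 and 1.31 in tumour, and Neat1 at 0.787 and 1.33 in exosomes and 0.265 and 0.16 in tumour, so that Malat1 was the higher of the pair in each library on this level scale.

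**Figure D2:**
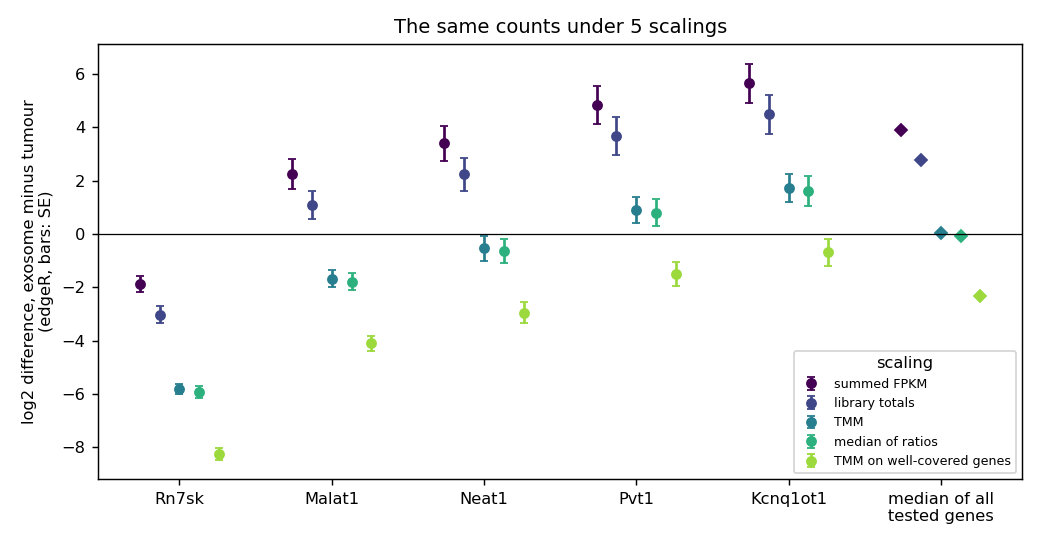
Log2 difference, exosome minus tumour, with its SE, for the 5 tested members under 5 scalings of the same counts, and the median over all tested genes (diamonds). Rn7sk stays below 0 under each of these, from −8.25 to −1.87, and the other members cross 0 with the scaling. The order of the members is the same in each, as a scaling moves all genes by nearly the same amount.

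Short stretches of these long RNAs resemble annotated small RNAs. Only annotated small RNA genes with a count in these libraries were searched. Malat1, Neat1 and Kcnq1ot1 each contain a stretch like the same 25 of them, all of the microRNA biotype. The stretches were 86.5% to 96.0% identical in Malat1, with 24 of 25 on the opposite strand. These genes had 21 and 9 counts in exosomes and 5 and 2 in tumour. Malat1 also holds 61 bases that are 83.6% identical to 7SL, a cytoplasmic RNA that guides ribosomes to the endoplasmic reticulum, whose gene Rn7s1 had 1209 and 905 counts in exosomes and 587 and 353 in tumour. The part of such matches in the counts of Malat1, Neat1 and Kcnq1ot1 was not tested. Annotated genes that overlap the members added little: of 20 such genes 2 had a count, both in Pvt1 and summing to 4 over all libraries.

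Paraspeckle and speckle protein transcripts are the context of Malat1 and Neat1. Of 18 paraspeckle genes 8 were tested, with a median log2 difference of −0.45 by TMM. With TMM 1 was called, lower, where 16% of all tested genes were called higher and 22.1% lower. With library totals 7 were called, all higher, where 63.8% of all tested genes were called higher and 11.5% lower. Tardbp, which encodes the RNA-binding protein TDP-43, was the one that fell (−3.01, SE 0.40, edgeR adjusted p = 0.000483), and with library totals it had −0.25 (edgeR adjusted p = 0.741). It had 2 and 3 counts in exosomes and 180 and 112 in tumour. Hnrnpk had 3 and 3 counts in exosomes and 44 and 35 in tumour, Ewsr1 3 and 1 in exosomes and 19 and 21 in tumour, and Matr3 2 and 2 in exosomes and 20 and 19 in tumour. Of 17 speckle genes 9 were tested, with a median of −0.41. With TMM 1 was called, lower, and with library totals 5 were called, all higher, against the same shares of all tested genes. That 1 was Srsf5, a splicing factor with 0 and 1 counts in exosomes and 77 and 54 in tumour (−4.12, SE 0.75, edgeR adjusted p = 0.00306; −1.42, edgeR adjusted p = 0.290 with library totals). Srsf5 would not have passed the filter on low counts by its exosome libraries, so its direction is no support. Most genes of both lists called higher with library totals did not reach the filter level of 1.79 CPM in both tumour libraries. They needed their exosome counts to pass, so their direction with library totals is no support either. Srsf1 had 3 and 2 counts in exosomes and 47 and 50 in tumour. Srrm2 had 6 and 5 in exosomes and 56 and 21 in tumour, and Pnn 1 and 1 in exosomes and 31 and 34 in tumour. Malat1 and Neat1, at −1.69 and −0.54 with TMM, lay in the range of these messenger RNAs.

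RNase P, the enzyme that cuts Malat1 and Neat1 in front of their tRNA-like ends, was present as its RNA and hardly as its protein messengers. Of 14 genes of 3′ end processing 11 had a count and 1 was tested, Rpph1, the RNase P RNA itself, with 85389 and 46908 counts in exosomes and 1783 and 1094 in tumour (8.34, SE 0.33, edgeR adjusted p = 3.48e-07). Elac2, which trims the 3′ ends of tRNAs, had 2 and 0 counts in exosomes and 3 and 0 in tumour. Pop1, a protein subunit, had 0 and 0 in exosomes and 2 and 2 in tumour, and Mettl16, which binds the Malat1 triple helix, 0 and 1 in exosomes and 0 and 1 in tumour.

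Pvt1 and Kcnq1ot1 had the highest exosome levels relative to the tumour among the 5 tested members, on 4 or 5 exosome counts per library. Pvt1 (ENSMUSG00000097039, chromosome 15, 62037986 to 62378096) had 4 and 5 counts in exosomes and 20 and 14 in tumour, or 13.1 and 23.0 CPM in exosomes and 1.38 and 1.29 CPM in tumour. Kcnq1ot1 (ENSMUSG00000101609, chromosome 7, 143203458 to 143296549) had 5 and 4 counts in exosomes and 9 and 10 in tumour, or 16.4 and 18.4 CPM in exosomes and 0.619 and 0.922 CPM in tumour. The groups did not overlap for either gene, with both exosome libraries higher, as was so for 77.2% of tested genes. The exosome replicates of Pvt1 stood further apart than those of Kcnq1ot1. The filter on low counts asked for 1.79 CPM of the library total in at least 2 libraries, and neither gene reached that in a tumour library. Both were thus tested only because exosome levels were high, and had to differ that way on the scale of library totals. Other tested genes entered in the same way, so the 77.2% is raised by the filter too.

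**Figure D3:**
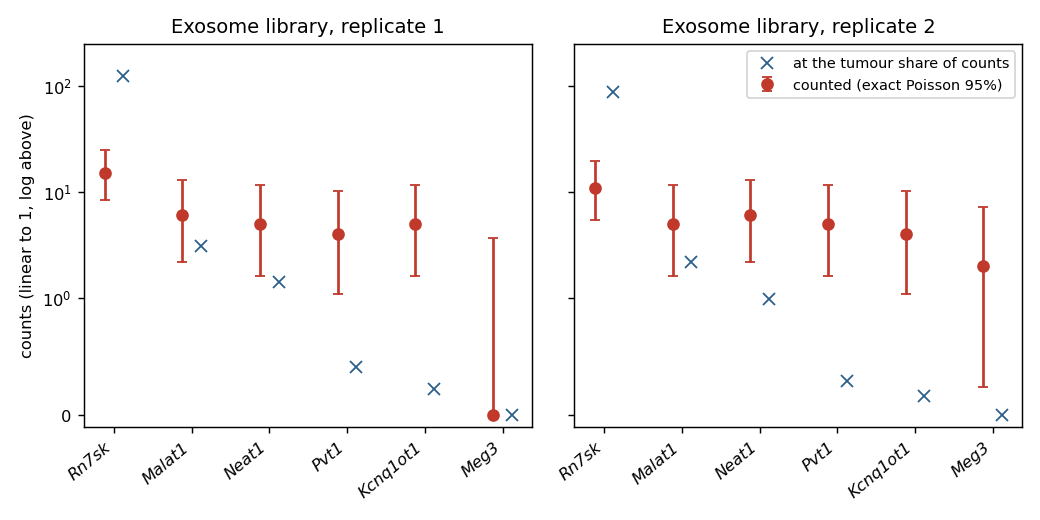
Counts found in each exosome library (red, exact Poisson 95% intervals) beside the counts that the tumour share would give (blue crosses), on an axis that is linear up to 1 and logarithmic above. Rn7sk was found with 15 and 11 counts where the tumour share gives 125 and 88.7, and Kcnq1ot1 with 5 and 4 where it gives 0.229 and 0.163.

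With TMM the log2 difference of Pvt1 was 0.90 (SE 0.49, edgeR adjusted p = 0.227) and that of Kcnq1ot1 was 1.72 (SE 0.54, edgeR adjusted p = 0.0391). The Kcnq1ot1 call was lost without exosome replicate 1 (edgeR adjusted p = 0.220), without exosome replicate 2 (0.142), without tumour replicate 1 (0.137) and with DESeq2 (0.117), with differences of 1.66, 1.76, 1.37 and 1.60. Each fit without a library leaves 1 group with a single library, which is assumed to vary like the other group, and 1 residual degree of freedom. With library totals Pvt1 had 3.67 (SE 0.70, edgeR adjusted p = 1.39e-05) and Kcnq1ot1 4.48 (SE 0.72, edgeR adjusted p = 4.99e-07), against 63.8% of all tested genes called higher. TMM factors from the 204 genes with at least 10 counts in every library turned Pvt1 to −1.50 (edgeR adjusted p = 0.0159) and Kcnq1ot1 to −0.69 (edgeR adjusted p = 0.238).

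Genes beside these loci were chosen after their values were seen. Myc, the oncogene 47612 bases from Pvt1, had 1 and 3 counts in exosomes and 48 and 32 in tumour. Kcnq1, which Kcnq1ot1 overlaps on the opposite strand, had 0 counts in all libraries, as had Cdkn1c and Phlda2, imprinted genes of the same domain. Meg3 (ENSMUSG00000021268, chromosome 12, 109541001 to 109571726) had 0 and 2 counts in exosomes and 0 and 0 in tumour. The exact 95% intervals of the 0 in tumour replicates 1 and 2 reach 0.254 and 0.340 CPM. Every library is under the floor of 3 counts. That floor is 9.81 and 13.8 CPM in exosome replicates 1 and 2, and 0.206 and 0.277 CPM in tumour replicates 1 and 2. Meg3 thus did not pass the filter of the main fit and gets no fold from it. Its microRNA genes Mir770 and Mir1906-1 had 0 counts throughout. Rian, the next noncoding RNA of that imprinted cluster, had 1 and 0 counts in exosomes and 19 and 25 in tumour (−2.59, SE 1.15, edgeR adjusted p = 0.13).

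Ratios within a library do not depend on any scaling between libraries. The count ratio of Rn7sk to Malat1 was 2.50 and 2.20 in exosomes, with exact 95% intervals of 0.917 to 7.86 and 0.705 to 8.08. In tumour it was 38.6 and 44.4, with intervals of 32.9 to 45.5 and 36.4 to 54.7. The intervals of the 2 kinds of library are far apart. Rn7sk to Kcnq1ot1 was 3.0 and 2.75 in exosomes and 664 and 439 in tumour. Malat1 to Kcnq1ot1 was 1.20 and 1.25 in exosomes, with intervals of 0.305 to 4.97 and 0.269 to 6.30. In tumour it was 17.2 and 9.90, with intervals of 8.84 to 38.4 and 5.16 to 21.3. For Malat1 to Neat1 the ratios were 1.20 and 0.833 in exosomes and 1.94 and 2.75 in tumour, and the exosome intervals of 0.305 to 4.97 and 0.201 to 3.28 cover the tumour ratios, so no shift between this pair was detectable. Rn7sk took 42.9% and 33.3% of the summed counts of the 6 in exosomes and 95.8% and 96.5% in tumour.

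In the fits, the order from lowest to highest log2 difference was Rn7sk, Malat1, Neat1, Pvt1, Kcnq1ot1. It was the same in 14 of the 17 fits that held all 5, the exceptions being limma on log2(FPKM + pseudocount). A change of scaling moves all genes by nearly the same amount and so could hardly change the order. The remaining fits share most of the same counts, so the 14 are no independent support. With TMM, Rn7sk minus Malat1 was −4.13 on the log2 scale, which is 17.5-fold and far beyond the SE of either. Malat1 minus Neat1 was −1.15, Neat1 minus Pvt1 −1.44 and Pvt1 minus Kcnq1ot1 −0.81, with an SE of 0.32 to 0.54 on each member. The differences between members were not tested. Of the 5 tested members 1 was called higher and 2 lower with TMM, where 38% of all tested genes were called, 16% higher and 22.1% lower. With library totals 3 were called higher and 1 lower, where 75.3% of all tested genes were called, 63.8% higher and 11.5% lower. Pvt1 and Kcnq1ot1 entered the test through their exosome level, so these counts are no support for a direction.

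**Figure D4:**
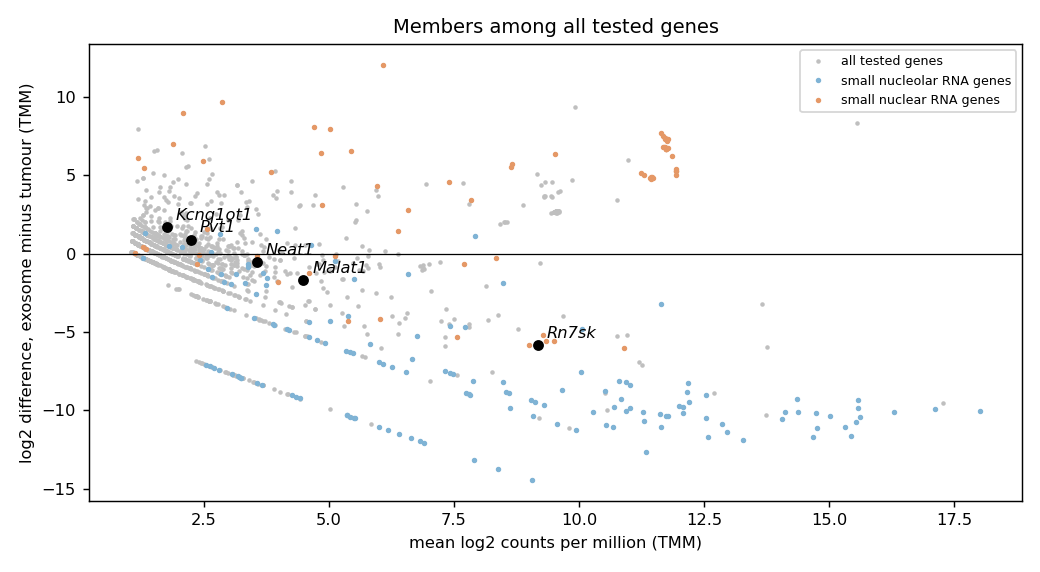
Log2 difference, exosome minus tumour, against mean log2 CPM, both with TMM, for all 1442 tested genes (grey), with small nucleolar (light blue) and small nuclear RNA genes (orange) coloured and the 5 tested members in black. Rn7sk at −5.82 lies beside a few small nuclear RNA genes, while Malat1, Neat1, Pvt1 and Kcnq1ot1, from −1.69 to 1.72, lie in the main cloud, and their sign turns with the scaling.

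Other nuclear and imprinted noncoding RNAs went both ways. Of 42 listed names 39 were in the table, 26 had a count and 7 were tested, with 3 higher and 2 lower by TMM (median −0.67). Of all tested genes 16% were called higher and 22.1% lower with TMM. With library totals 3 were called, all higher, where 63.8% of all tested genes were called higher and 11.5% lower. The 3 that rose were the structured RNAs Rpph1, Rmrp (5.98, SE 0.22, edgeR adjusted p = 2.74e-07) and Terc (4.47, SE 0.22, edgeR adjusted p = 1.34e-06), the RNAs of RNase P, RNase MRP and telomerase. Rmrp had 3346 and 2212 counts in exosomes and 396 and 230 in tumour, and Terc 173 and 217 in exosomes and 73 and 53 in tumour, so these nuclear or nucleolar RNAs and 7SK differed in opposite directions with TMM and with library totals. The 2 that fell with TMM were Snhg5 and Gas5, hosts of small nucleolar RNAs. Snhg5 had 0 and 0 counts in exosomes and 53 and 41 in tumour, and Gas5 0 and 1 in exosomes and 31 and 24 in tumour. Neither would have passed the filter on low counts by its exosome libraries, so their direction is no support. At the tumour share 1.94 and 1.13 counts would fall in both exosome libraries together, so at this depth a difference in share was not detectable for either. Xist, the RNA that coats the inactive X chromosome, had 1 and 2 counts in exosomes and 18 and 16 in tumour (−0.67, SE 0.70, edgeR adjusted p = 0.591).

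Among all annotated long noncoding RNA genes, 815 had a count and 31 were tested. Malat1 ranked 16 and 17 among them by count in exosomes and 8 and 8 in tumour, and Neat1 17 and 14 in exosomes and 10 and 11 in tumour. Of the 31 tested, 10 were called higher and 9 lower with TMM, with a median of −0.54, where 16% of all tested genes were called higher and 22.1% lower. With library totals 19 were called higher and 3 lower, with a median of 2.23, where 63.8% of all tested genes were called higher and 11.5% lower. With TMM 8 of the 31 lay below Malat1. Malat1, Neat1, Pvt1, Kcnq1ot1 and Meg3 together made up 0.779% and 1.08% of the counts of this class in exosomes and 0.12% and 0.108% in tumour.

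The 3 tested genes whose pattern over the 4 libraries was closest to Rn7sk, by the Euclidean distance of centred log2 CPM, were Gm23143 (distance 0.228), Rnu5g (0.237) and Gm25099 (0.242), all of the small nuclear RNA biotype. That biotype as a whole went the other way by share. It took 49.0% and 50.9% of exosome counts and 0.513% and 0.462% of tumour counts. Rnu5g, a U5 gene by its symbol, had 22 and 17 counts in exosomes and 7723 and 5472 in tumour, a log2 difference of −5.57. Closest to Malat1 were the mitochondrial messenger RNA mt-Co3 (0.149), the long noncoding RNA gene Gm27010 (0.172) and the ubiquitin ligase gene Ube3a (0.185). For mt-Co3 there were 8 and 6 counts in exosomes and 198 and 136 in tumour, a log2 difference of −1.74. A likeness over 4 libraries in 2 groups rests mostly on the size of the difference.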

How the data were processed

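Per the labels, adaptors were joined to total RNA, which was reverse transcribed, amplified by PCR and selected on a gel. Per the submitters' processing notes, TopHat2 2.0.9, Cufflinks 2.1.1 and Cuffdiff were used with build GRCm38.p4. The counting tool, annotation, strand setting and treatment of reads with several matches were not given in the sources used here. Deposited were whole-number counts per gene, not normalized by the authors, and FPKM, which per the file headers are scaled to length and library size.

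The main test on counts was that of edgeR 4.0.16 under R 4.3.3 (TMM, filterByExpr with minimum count 10 and total 15, quasi-likelihood, group as the only term, two-sided, Benjamini-Hochberg over 1442 genes at 0.05). SE is the absolute difference divided by the square root of F. Alternatives used DESeq2 1.42.0, limma 3.58.1 on log2(FPKM + 0.1, 1 or 10), other scalings and filters, thinning, a replicate block and each library left out. Copies were found with blastn 2.17.0. The members, the context lists and these choices were set with earlier results of these data known. Named were the members, up to 4 genes of each context list by mean count with Larp7, Mepce, Hexim1, Cdk9, Gas5, Xist, Rian and neighbours of the loci added after their values were seen, overlapping genes, and the 3 genes closest in pattern to Rn7sk and to Malat1. The result for 1 listed gene is not reported here. With 2 libraries against 2 an exact permutation test cannot go below p = 0.333. Replicates differed beyond sampling noise (chi-square per degree of freedom 28.4 in exosomes and 33.3 in tumour).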

Additional observations from a re-analysis of the deposited data

How the results depend on the processing

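Rn7sk kept its direction and its call under all 18 alternatives (−8.25 to −1.87; −5.95 to −5.72 with each library left out, which leaves 1 group with a single library assumed to vary like the other). The other members depended on scaling. Library totals gave Malat1 1.08, Neat1 2.23 and Pvt1 3.67, with 920 genes higher and 166 lower. Summed FPKM gave Malat1 2.25, Neat1 3.39 and Pvt1 4.83, with 1099 higher and 124 lower. Limma on log2(FPKM + 0.1), (FPKM + 1) and (FPKM + 10) gave Malat1 1.04, 0.67 and 0.15, Neat1 1.81, 0.67 and 0.097, and Pvt1 2.90, 1.18 and 0.19, with 977, 830 and 699 genes higher and 161, 171 and 189 lower; Kcnq1ot1 had 0.028 at pseudocount 10. No filter gave Malat1 −2.86, Neat1 −1.71 (now called, edgeR adjusted p = 0.00563), Pvt1 −0.26, Kcnq1ot1 0.55 and 610 genes lower. It also took in Meg3 (4.14, SE 2.59, edgeR adjusted p = 0.560), which rests on 2 counts in exosome replicate 2. Kcnq1ot1 lost its call with DESeq2 (1.60) and median-of-ratios scaling (1.61). TMM factors from genes with at least 10 counts in every library, chosen after seeing the data like TMMwsp, gave Malat1 −4.11, Neat1 −2.95 (now called, edgeR adjusted p = 0.000197), Pvt1 −1.50 (now called lower) and Kcnq1ot1 −0.69, with 114 genes higher and 1065 lower. The cause of these shifts was not tested. Thinned tumour libraries left 121 genes lower and Rn7sk as the only member tested, and a minimum of 10 counts in 2 libraries left out Kcnq1ot1.

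Leaving out each library gave −1.75 to −1.61 for Malat1, −0.79 to −0.15 for Neat1, 0.62 to 1.16 for Pvt1 and 1.37 to 2.02 for Kcnq1ot1, 206 to 233 genes higher and 309 to 324 lower. It gave shares of 0.00491% to 0.00506% of exosome and 0.0405% to 0.0411% of tumour counts for Rn7sk, and 0.00196% to 0.0023% of exosome and 0.000912% to 0.00107% of tumour counts for Malat1. Counts outside the small RNA classes were 5.49% and 6.18% of exosome and 3.34% and 3.18% of tumour counts, with the biotype of Rn7sk and its copies kept in. Out of these, Rn7sk held 0.0856% in exosomes and 1.25% in tumour, and Malat1 0.0365% in exosomes and 0.0303% in tumour. Each share rises by construction of the smaller total. The ratio between groups moves too, as the counts kept are a larger part of exosome than of tumour libraries. With a replicate block Rn7sk had −5.81, Malat1 −1.69, Neat1 −0.51, Pvt1 0.90 and Kcnq1ot1 1.71, with 244 genes higher and 345 lower; same-numbered libraries shared only a number (r = −0.020 over 1442 genes). Exosome depth limits the members other than Rn7sk, which rest on 0 to 6 counts a library.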
